A study of Drosophila melanogaster with 6 samples.

Results

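Gene models of the fly heterochromatin at or above a set intensity are described here, on 6 tiling arrays of ovaries from uap56 and vasa flies. The models were taken by their number: every gene name in the RefSeq tables made of CG or CR, then 40 or 41, then 3 further digits. A model was kept when its mean deposited intensity over all 6 arrays was 50 or more, with the transcript of the highest mean standing for the gene. The rule kept 185 models of the 422 that carry such a name and of the 14012 gene names with a value. Of the others, 235 had a mean below 50 and 2 were listed at 0. The models were thus chosen by their mean intensity over all arrays, so the level of a model is a description. The rule did not use the difference between the groups directly, but 41 models had a group mean below 50, 22 in uap56 and 19 in vasa, and reached the level only through their higher group.

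Total RNA of dissected ovaries was labelled with biotin and hybridised, with 3 arrays for uap56 and 3 for vasa, from flies raised at 25 °C and fed yeast paste. The uap56 gene is listed as Hel25E and encodes an RNA helicase of mRNA splicing and export, while vas encodes the germline helicase Vasa. The labels name each group by its gene alone and give no allele, age or cross, so what the flies of both groups share is not known here. No array of flies with both genes intact was analysed here, and each difference below is uap56 minus vasa, with no direction relative to intact flies. Nothing in the labels says whether the 3 arrays of a group came from separate flies, so a p-value measures only the spread between these samples, which may be technical.

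Pericentromeric heterochromatin is the compact, repeat-rich chromatin beside the centromeres, marked by methylated histone H3K9 and bound by HP1. Genes within it have introns full of transposon remnants, and several of them, such as light and rolled, need their heterochromatic surroundings for normal expression. The loci that give rise to most piRNAs of the ovary, the small RNAs that silence transposons, also lie there, and both UAP56 and Vasa act in the germline piRNA pathway. Numbers beginning with CG40 and CG41 were handed out when this sequence was first assembled and annotated.

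The models fell into 3 classes by what stands at the locus today. A Release 6 gene was found for 46 of the 185, in 25 cases by the transcript accession and in 21 by the name. Of these, 28 are protein-coding genes and 18 carry a CR number, 14 of them as pseudogenes and 4 as long non-coding RNAs. The other 139 models (75.1%) had no Release 6 gene, against 0.770% of the other genes at an intensity of 50 or more. All 185 bear a CG name in the files and none a CR name, so CG and CR models are compared by the present locus, a choice made after the names were seen.

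Most loci that could be placed lay beside a centromere. Of the 46 models, 6 were on 2L, 12 on 2R, 11 on 3L, 4 on 3R, 5 on X, 6 on Y, 1 on chromosome 4 and 1 on an unplaced sequence. On the large arms and X, 37 of 38 were among the 5% of genes nearest the centromere end, the farthest of them at 3.40% of the genes of its arm. The exception was lncRNA:CR40341, at 12.4% of the genes of 2L. On chromosome 4, Mitf stood at the far end from the centromere, as the 112th of 114 genes. For the 139 models without a Release 6 gene no place was known, so their heterochromatic origin rests on the name alone.

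The 7 ovary germline genes of the marker list had mean intensities between 87.4 and 4517 and the 9 follicle cell genes between 720 and 18337. The 7 testis genes lay between 11.3 and 91.9, the 3 gut genes between 43.9 and 124, the 2 fat body genes between 82.7 and 189, the 3 neuron genes between 90.8 and 138 and the 3 muscle genes between 280.2 and 1013. These ranges overlap and rest on different probes, so they show signal from germline and follicle genes but do not rank the tissues. Of the 185 models, 93 had a mean under 100, where genes of the testis, gut, fat body and neuron lists also lay. A mean of 50 or more is thus not shown to mark expression in ovaries. The summed germline level was 10508 to 12521 on the uap56 arrays and 10274 to 13146 on the vasa arrays, and the summed follicle cell level was 81305 to 102951 and 80775 to 95544, so the groups overlapped in both. The germline sum covers genes that went both ways. Of the 7, 5 lay below 0, with a median log2 difference of -0.49, and nos and BicD lay above 0. Without overlap, osk, bam and grk had vasa above and nos had uap56 above. Muscle genes summed to 1396 to 2411 on uap56 arrays and 1047 to 2112 on vasa arrays. Of the lists of germline, follicle, testis, gut, muscle, fat body and neuron genes, nos alone passed the test, higher in uap56. The helicase transcripts were measured first: vas had intensities of 1698 ± 341 in uap56 and 297 ± 75.1 in vasa (SD, n = 3 each), a difference of 2.52 ± 0.22 in log2 (SE) whose adjusted p was 0.00208, and 0.000585 to 0.0964 over the alternatives. Hel25E had 1419 ± 326 in uap56 and 1610.3 ± 192 in vasa, groups that overlapped, with a log2 difference of -0.20 ± 0.19 and an adjusted p of 0.644.

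Between the groups 10 of these models differed, 1 higher and 9 lower in uap56. Those lower in uap56 were 6 protein-coding genes, among them the histone methyltransferase gene Set1, the mitochondrial import gene Tim17b and RNASEK, and 3 models without a Release 6 gene. The single model higher in uap56, CG41245, also had no Release 6 gene, and no model with a CR locus passed. As counts, 10 of 185 (5.41%) passed an adjusted p of 0.05 in limma, against 504 of all 14012 genes (3.6%) and 4.98% of the genes at 50 or more. The share in either direction was thus close to that of genes at the same level. Toward vasa the share was 4.86% of the models, against 1.21% of all genes and 1.67% of genes at 50 or more. Toward uap56 it was 1 of 185, against 2.39% and 3.31%. Quantile normalization moved the split of all genes to 358 toward uap56 and 324 toward vasa, against 335 and 169 as deposited, and that of the models to 1 and 11. CG41559 and CG41545 reached the level only through the vasa arrays, and among the 144 models with both group means at 50 or more 8 passed (5.56%), 1 toward uap56 and 7 toward vasa.

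The count rests on the variance model and on single arrays. The fit lets the variance follow intensity, and with 1 variance prior for all genes limma passed 0 models and 2 genes (0.0143%), with 30 models (16.2%) and 2103 of all 14012 genes at an unadjusted p under 0.05, where the fit as described had 46 (24.9%) and 2508 (17.9%). Without uap56 replicate 2 the count was 1, without uap56 replicate 3 it was 4, without vasa replicate 1 it was 5, and without vasa replicate 2 or 3 it was 0, with 33 and 34 models (17.8% and 18.4%) against 13.7% and 13.4% of all genes at an unadjusted p under 0.05; without uap56 replicate 1 it was 10, of which 7 were among the 10 above.

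**Figure D1:**
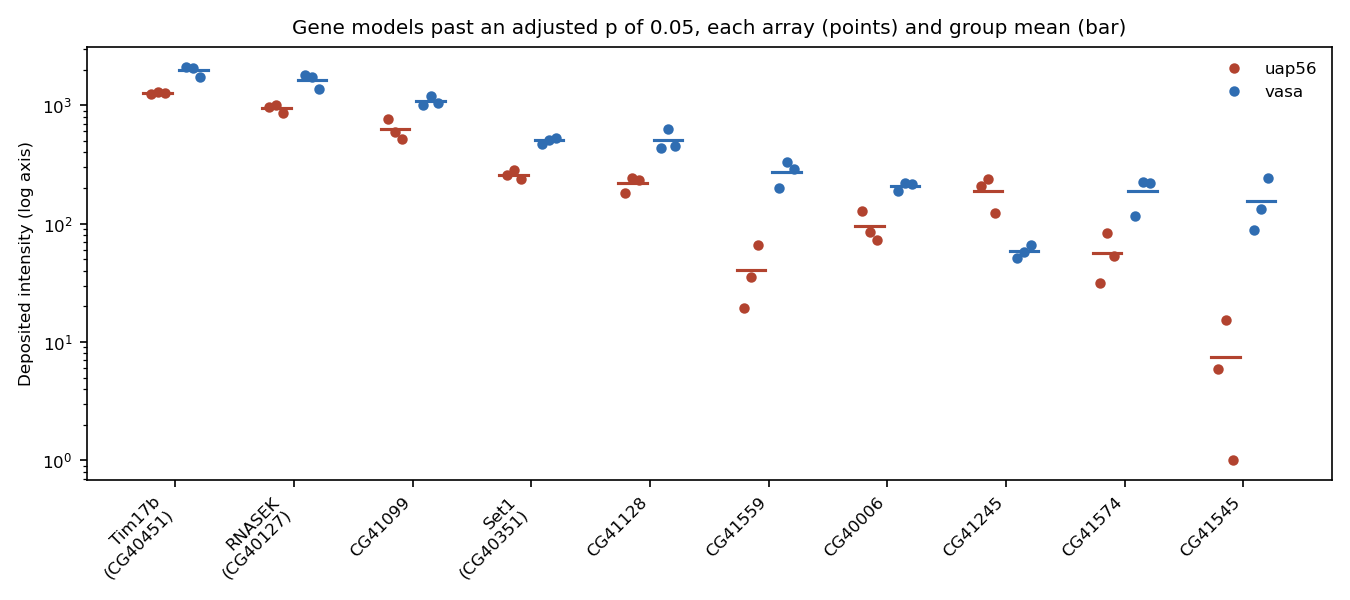
Deposited intensity (log axis) on each array (points) and group mean (bars) for the 10 models past an adjusted p of 0.05, ordered by mean, with uap56 in red and vasa in blue. The groups do not overlap for any of the 10, and CG41245 is the one model with uap56 above.

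Over all 185 models the differences leaned toward vasa. The median log2 difference was -0.19, against 0.02 over all genes, and 120 models (64.9%) lay below 0, against 48.7% of all genes. For 38 models the 2 groups of arrays were fully separated, 8 with uap56 above (4.32%) and 30 with vasa above (16.2%). Among all genes 23.4% were separated, 13.3% with uap56 above and 10.0% with vasa above. The median intensity of the models was 106, 92.7 and 97.5 on the uap56 arrays, and 105, 105 and 111 on the vasa arrays, so this summary of level overlapped. Over all genes these medians were 127, 122 and 119.6 in uap56 and 127, 125 and 121 in vasa. In whole ovaries, fewer cells of a type and less RNA per cell cannot be told apart.

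**Figure D2:**
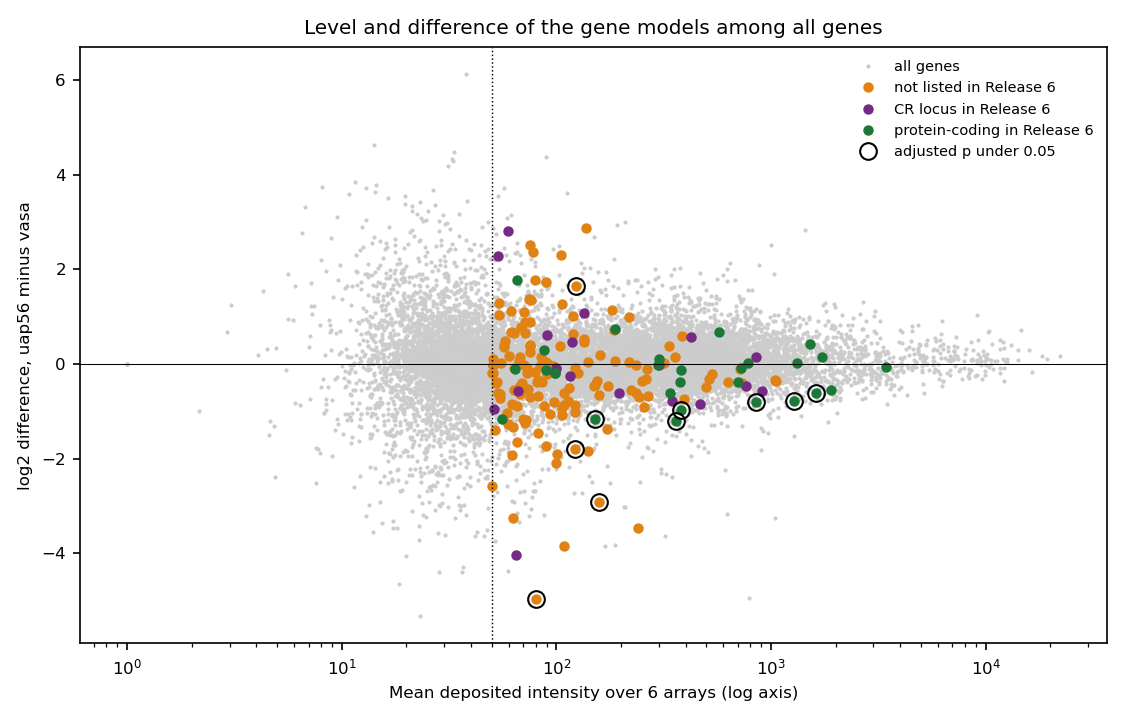
Mean deposited intensity over 6 arrays (log axis) against the log2 difference, uap56 minus vasa, for all genes (grey) and for the 185 models by their present locus (colours), with the 10 models past an adjusted p of 0.05 ringed. The dotted line marks the intensity of 50 that the rule uses; 9 of the 10 ringed models lie at 100 or more, where there are 92 models.

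The protein-coding models held 4 genes of mitochondrial proteins. Tim17b (CG40451) and Tim23 (CG40042) encode subunits of the translocase that brings proteins across the inner membrane. Tim17b had intensities of 1254, 1298 and 1280.1 on the uap56 arrays, and 2116, 2057 and 1732 on the vasa arrays. Every vasa array was above every uap56 array, and the log2 difference was -0.62 ± 0.13, with an adjusted p of 0.0388. Tim23 had 1730.5, 1787 and 1181 on the uap56 arrays, and 2605, 2021 and 2129 on the vasa arrays. The vasa arrays were again all higher, yet the log2 difference of -0.54 ± 0.19 did not pass (adjusted p 0.163; 0.0499 after quantile normalization, and up to 0.363 under other alternatives). The respiratory chain genes showed no such order. UQCR-11 (CG41623), of complex III, had 1631, 1686 and 2074 in uap56 and 2252, 1344 and 1407 in vasa. ND-AGGG (CG40002), of complex I, had 356, 901 and 854 in uap56 and 671, 344 and 292 in vasa. The groups overlapped for both, with log2 differences of 0.14 ± 0.21 and 0.67 ± 0.42 that did not pass.

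Genes of chromatin and RNA regulation differed among themselves. Set1 (CG40351) encodes the histone H3K4 methyltransferase of the COMPASS complex. It had 256, 282 and 240.1 in uap56 and 472, 508 and 532 in vasa, with a log2 difference of -0.96 ± 0.16 and an adjusted p of 0.0161. The 3 vasa arrays were all higher, and the uap56 level was 0.514 of the vasa level as a ratio of geometric means. The 3 transcripts listed for Set1 gave nearly one value, between -0.97 and -0.96. Some of them had the same intensity on every array, so they are not separate measurements. AGO3 (CG40300), a PIWI protein that amplifies piRNAs in the germline, had 675, 645 and 516 in uap56 and 735, 824 and 807 in vasa. Its arrays did not overlap, and the difference of -0.37 ± 0.16 did not pass (adjusted p 0.249). Maf1 (CG40196), a repressor of RNA polymerase III, had 929.8, 687 and 741 in uap56 and 876, 814 and 622 in vasa. Its groups overlapped, with a log2 difference of 0.03 ± 0.18.

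Membrane proteins made up a further group. RNASEK (CG40127) is a small membrane protein that in human cells associates with the proton-pumping V-ATPase. It had 968, 1004 and 852 in uap56 and 1802, 1718 and 1362 in vasa, every vasa array above every uap56 array, with a log2 difference of -0.78 ± 0.15 and an adjusted p of 0.0303. MFS17 (CG40263), of the major facilitator family of transporters, had 291, 288 and 225 in uap56 and 386, 444 and 393 in vasa. Its arrays did not overlap, and the difference of -0.61 ± 0.18 did not pass (adjusted p 0.0965). The gene uex (CG40084), of the magnesium transporter family known in humans as CNNM, had 749, 753 and 604 in uap56 and 671, 833 and 718 in vasa. The groups overlapped and the log2 difference was -0.08 ± 0.16. Cnep1r1 (CG41106), named for the regulatory subunit of a nuclear envelope phosphatase, had 70.8, 7.52 and 53.0 in uap56 and 66.4, 60.0 and 77.5 in vasa. Its groups overlapped, with 1 uap56 array far below the other arrays, and the difference was -1.15 ± 0.76.

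**Figure D3:**
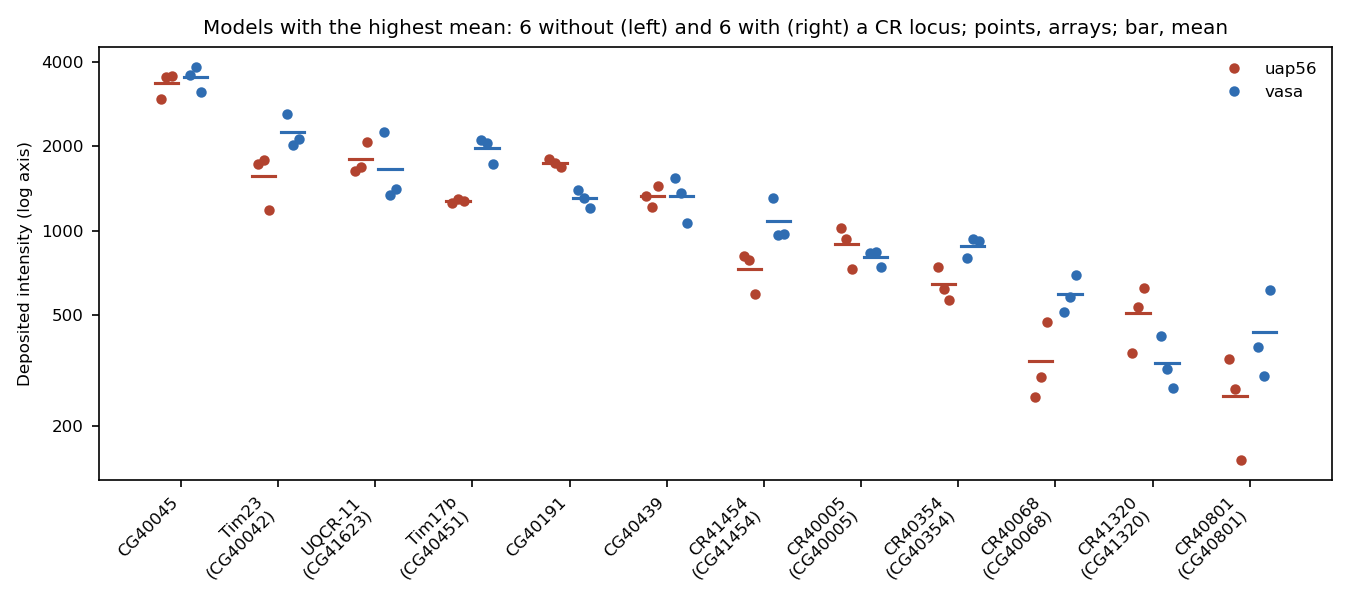
Deposited intensity (log axis) on each array (points) and group mean (bars) for the 6 models of highest mean without a CR locus and the 6 with one, uap56 in red and vasa in blue. Tim23, Tim17b, CR41454, CR40354 and CR40068 have vasa above without overlap and CG40191 has uap56 above; of the 12, Tim17b alone passed the test.

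Protein-coding genes without a name held the remaining 3 that passed. CG41128 had 182, 243 and 233 in uap56 and 435, 627 and 451 in vasa, and its log2 difference was -1.20 ± 0.21 (adjusted p 0.0189). CG41099 had 765, 590.3 and 517 in uap56 and 1011, 1189 and 1038 in vasa, a difference of -0.81 ± 0.17 with an adjusted p of 0.0404. CG40006 had 128, 85.7 and 72.8 in uap56 and 189.7, 219.7 and 216 in vasa, a difference of -1.16 ± 0.26 with an adjusted p of 0.0472. All vasa arrays were above all uap56 arrays for these genes. The 4 transcripts of CG41099 ran together, between -0.81 and -0.77, and whether they share probes was not tested.

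The other protein-coding genes did not pass. CG40191 had 1805, 1748 and 1682 in uap56 and 1401, 1305 and 1207 in vasa. It was the only protein-coding model whose uap56 arrays were all higher, by 0.42 ± 0.13 (adjusted p 0.109). CG40045, the model of highest mean, had 2966, 3554 and 3575 in uap56 and 3613, 3853 and 3135 in vasa, and overlapped with a difference of -0.07 ± 0.14. CG40439 had 1327, 1216 and 1443 in uap56 and 1544, 1367 and 1068 in vasa, overlapping with a difference of 0.02 ± 0.16 that turned to -0.058 after quantile normalization. A further 9 genes overlapped without passing. Of these, CG41242 (0.74), CG40486 (0.30) and CG40160 (0.11) had log2 differences above 0. CG41378 (-0.39), CG40228 (-0.12), l(2)41Ab (-0.12), CG42346 (-0.11) and l(3)80Fg (-0.02) lay below 0. On chromosome 4, Mitf (CG41130), a transcription factor of lysosomal genes, had 42.3, 68.5 and 200.7 in uap56 and 17.6, 45.7 and 18.3 in vasa; the groups overlapped and the difference of 1.77 ± 0.62 did not pass (adjusted p 0.171).

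One pair on X could not be separated. CG40813 and CG41562 had the same intensity on all 6 arrays, 96.0, 117 and 64.9 in uap56 and 105, 124 and 83.1 in vasa, so they are a single measurement with a difference of -0.19 ± 0.31. CG41614 and CG40754, both without a Release 6 gene, likewise shared their values, and CG41428 shared its values with a transcript of CG41495. No model matched a transposon family on all 6 arrays to 5 significant digits, although 1 to 12 models did so on a given array.

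Tim17b, CG41128 and CG41099 stand next to each other, as the 13th, 14th and 15th of 4226 genes from the centromere end of 3R in Release 6, and all 3 were lower in uap56. The measured genes around them, taken up after their values were seen, did not pass. Toward the centromere, Alg-2 had a difference of 0.60 ± 0.23, Parp1, a poly-ADP-ribose polymerase, had -0.25 ± 0.17, and spok, an ecdysone synthesis gene, had -0.10 ± 0.73 at a mean of 19.6. On the other side, 2 models of CG42402 had 0.42 ± 0.84 and -0.75 ± 0.46. Gfat1, of hexosamine synthesis, had 0.60 ± 0.29, CG40198 had 0.67 ± 0.51 and CG12581 had 0.83 ± 0.23 (adjusted p 0.0919). Near Set1 on 3L, ND-AGGG had 0.67, MED21 -0.22, UQCR-11 0.14 and CR40354 -0.46, and none of them passed. CR40354 had every vasa array higher, as Set1 did. No test of the runs of neighbours was made.

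**Figure D4:**
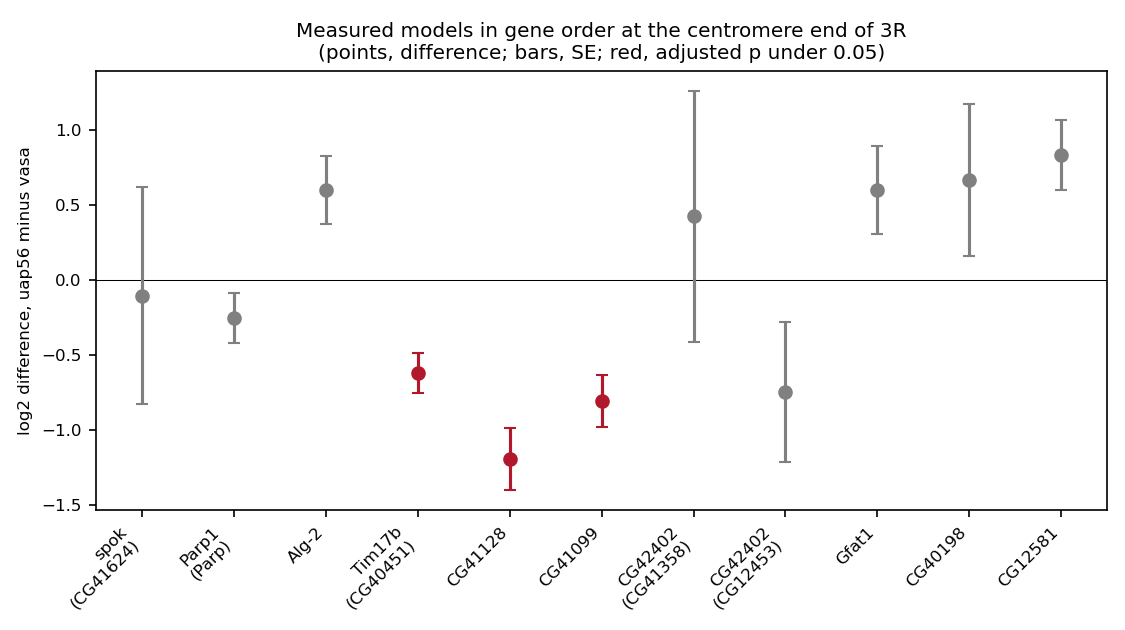
Log2 difference, uap56 minus vasa (points), with its standard error (bars) for the measured gene models in Release 6 order near the centromere end of 3R, with models past an adjusted p of 0.05 in red. Tim17b, CG41128 and CG41099 lie between -1.20 and -0.62, and the models on either side lie between -0.75 and 0.83.

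Models with a CR locus numbered 18, and none passed in limma, where 7 (38.9%) had an unadjusted p under 0.05, against 17.9% of all genes and 23.2% of genes at 50 or more. Their median log2 difference was -0.17, against -0.12 for the 28 protein-coding models, of which 6 (21.4%) passed. At an unadjusted p under 0.05 in limma there were 11 protein-coding models (39.3%), a share close to that of the CR models. Among other genes at an intensity of 300 or more 8.31% passed at the adjusted threshold, 2.38% toward vasa. The means of the protein-coding models ran from 55.9 to 3449, so that set is not matched to them in level. Of all genes at 50 or more 4.98% passed, 1.67% toward vasa. The CR median changed sign with single arrays, to 0.35 without uap56 replicate 3 and to 0.13 without vasa replicate 3. The within-group SD of log2 intensity had a median of 0.62 for CR models and 0.27 for protein-coding ones, and the medians of their mean intensities were 126 and 379. Whether CR and protein-coding models differ was not tested, since models are not replicates of a condition. Intensities of different models come from different probes and are not amounts of RNA set on one scale.

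The 6 CR models of highest mean are all pseudogenes in Release 6. CR41454 on 3L had 815, 784 and 594 in uap56 and 1304, 964 and 975 in vasa, without overlap, a difference of -0.56 ± 0.18 (adjusted p 0.141; 0.0475 after quantile normalization, and up to 0.329 under other alternatives). CR40354 on 3L had 744, 619 and 565 in uap56 and 801, 931 and 917 in vasa, without overlap, a difference of -0.46 ± 0.16 (adjusted p 0.154). CR40068 on 2R had 255, 299.7 and 471 in uap56 and 512, 579 and 694 in vasa, without overlap, a difference of -0.84 ± 0.24 (adjusted p 0.094; 0.0476 without uap56 replicate 3, and up to 0.2896 under other alternatives). As the mean over its 2 entries the difference of CR40068 was smaller, -0.56. These 3 pseudogenes leaned the same way and none passed as deposited. CR40005 on 2L had 1019.7, 934 and 732 in uap56 and 831, 839 and 739.9 in vasa, overlapping, a difference of 0.14 ± 0.16. CR41320 on 3L had 365, 536 and 625 in uap56 and 420.4, 319.9 and 275 in vasa, overlapping, a difference of 0.58 ± 0.24 (adjusted p 0.252). Of the CR models of lower mean, 3 on 2R had differences of -0.62 (CR41243, vasa above without overlap), -0.03 (CR40282) and 1.07 (CR40100), and 1 on 3R had 0.46 (CR40182). CR41519 on 2L had -0.24, and lncRNA:CR40341 and lncRNA:CR40947, each with an array at the lowest deposited value of 1, had -0.58 and -0.96 with standard errors of 1.85 and 2.15. For lncRNA:CR40341 the means ran the other way, 84.9 in uap56 and 47.2 in vasa.

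The Y chromosome, which female flies do not carry, holds 6 of the CR loci. CR40801 had 348, 272 and 151 in uap56 and 385, 304 and 612 in vasa, overlapping, a difference of -0.77 ± 0.35 (adjusted p 0.290). CR41423 had 89.9, 168 and 76.5 in uap56 and 56.2, 75.8 and 75.8 in vasa, the uap56 arrays all higher, a difference of 0.61 ± 0.35 (adjusted p 0.411). CR40601 had 105, 161 and 43.9 in uap56 and 89.9, 97.9 and 101 in vasa, a difference of -0.09 ± 0.44. The other 3 had arrays at the lowest value of 1 and did not pass in the fit as described. Su(Ste):CR40820, one of the Y repeats whose piRNAs silence Stellate in testes, had 110.0, 1 and 1 in uap56 and 155, 86.3 and 36.6 in vasa. Its difference, fitted as -4.04 ± 1.73 (adjusted p 0.272), rests on arrays at 1, so its size is not read. It passed in 1 of the 6 fits without 1 array. CR40441 had 25.0, 66.1 and 200.1 in uap56 and 1, 45.7 and 21.0 in vasa, and lncRNA:CR40629 had 32.4, 92.7 and 92.6 in uap56 and 60.8, 40.4 and 1 in vasa. Protein genes of the Y did not reach 50: the 10 matched of 12 listed, among them the dynein genes kl-2, kl-3 and kl-5 of sperm tails, had means between 9.50 and 42.5, and none passed. Copies of such repeats elsewhere in the genome could share probes with them, which was not tested, so the Y models are uncertain as single loci.

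**Figure D5:**
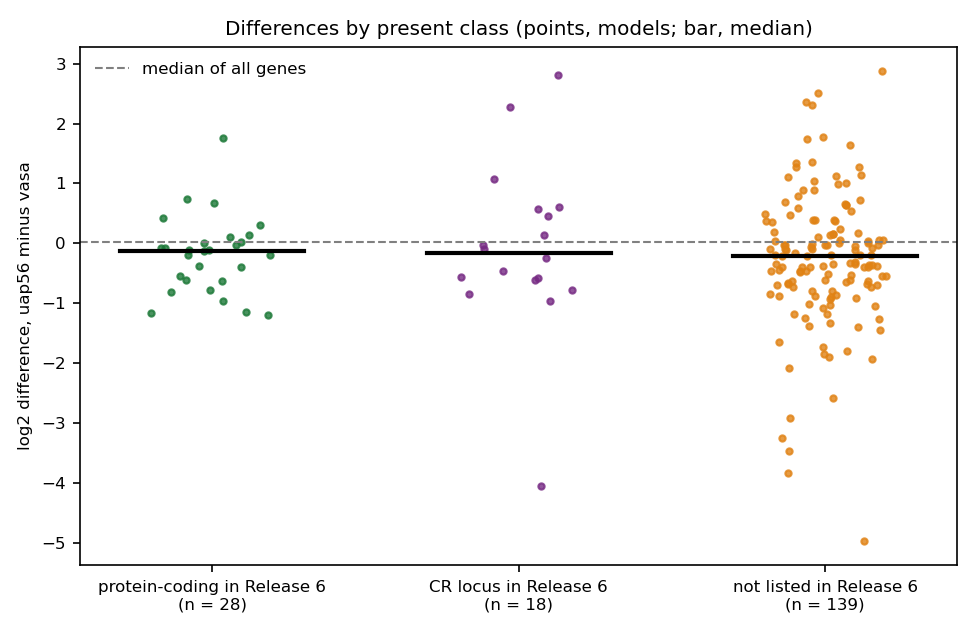
Log2 difference, uap56 minus vasa, of each model (points) and the median (bars) for the 28 models that are protein-coding in Release 6, the 18 with a CR locus and the 139 not listed there, with the median of all genes dashed. The medians are -0.12, -0.17 and -0.22, and the points of the models not listed spread from -4.97 to 2.88.

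The 139 models without a Release 6 gene had a median log2 difference of -0.22, with 90 below 0, and 4 of them passed, 1 higher and 3 lower in uap56. That is 2.88%, below the 3.6% of all genes and the 4.98% of genes at 50 or more, so their count does not stand above the background. CG41559 had 19.3, 35.7 and 65.8 in uap56 and 198, 332 and 292 in vasa, a difference of -2.91 ± 0.44 with an adjusted p of 0.0126. It reached the level of 50 only through the vasa arrays. Its uap56 mean was 40.3, and with 16 added the difference was -2.42, so its size depends on low values. CG41574 had 31.8, 83.5 and 53.3 in uap56 and 117, 225 and 222 in vasa, a difference of -1.79 ± 0.41 with an adjusted p of 0.0491. Both had every vasa array higher. CG41545 had 5.93, 15.3 and 1 in uap56 and 87.6, 132 and 243 in vasa, every vasa array higher (adjusted p 0.0271). Its uap56 mean was 7.43, below the means over all 6 arrays of the Y protein genes listed above. The size of its difference, fitted as -4.97 and as -2.80 with 16 added, is thus not read. CG41545 is also listed in 11 more entries of the same accession, all at 0. CG41245 had 206, 237 and 123 in uap56 and 51.6, 57.6 and 66.6 in vasa, every uap56 array higher, with a difference of 1.64 ± 0.31 and an adjusted p of 0.0261. Without 1 array at a time, each of the 10 models that passed did so in 0 (Tim17b) to 3 of the 6 fits.

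Further models without a Release 6 gene separated the groups without passing. CG40138 had 1, 73.3 and 26.8 in uap56 and 230.5, 196 and 126 in vasa, and did not pass (adjusted p 0.226; 0.0407 with 16 added, and up to 0.441 under other alternatives). CG40798 had 1, 46.9 and 24.8 in uap56 and 80.1, 95.0 and 129 in vasa, and did not pass (adjusted p 0.244). Both have a uap56 array at the lowest value of 1 and reached the level of 50 only through vasa, so no size is read from them. CG40119 had 70.0, 23.0 and 119 in uap56 and 170.5, 209 and 250.0 in vasa, a difference of -1.85 ± 0.53 (adjusted p 0.103). For these 3 models every vasa array was higher. With uap56 above, CG40244 had 269, 297 and 290.5 in uap56 and 173, 93.9 and 182 in vasa, a difference of 0.99 ± 0.27 (adjusted p 0.084; 0.0496 when only genes at 50 or more were tested, and up to 0.235 under other alternatives). CG40339 had 116, 185 and 133 in uap56 and 107, 64.4 and 29.6 in vasa, a difference of 1.27 ± 0.45 (adjusted p 0.173). CG41459 had 148, 169 and 408 in uap56 and 143, 123 and 128 in vasa, a difference of 0.73 ± 0.36 (adjusted p 0.337).

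The models not listed in Release 6 also spread more among replicates, with a median within-group SD of 0.70 on the log2 scale and a median of the mean intensities of 89.2. An array at the lowest value of 1 occurred in 16 of them, in 5 CR models and in no protein-coding model. Just inside the level of 50, CG41249 averaged 50.6, CG41457 50.3 and CG41483 50.04, and just outside it CG40198 averaged 49.6, nvd (CG40050), which starts ecdysone synthesis from cholesterol, 49.1 and CG41473 49.1. Leaving out 1 model of each of the 2 pairs with identical values, 183 models gave 16653 pairs over the 6 arrays, and the log2 values most alike were those of CG40271 and CG41592 (Pearson r 0.996), of CG41378 and CG41428 (0.994) and of CG41099 and CG40006 (0.993). The points of a pair share arrays and groups, and the last pair is one in which both models were lower in uap56. CG40271 and CG41592 had the same intensity, 303.5, on vasa replicate 2, and whether they share probes was not tested. The 3 pairs are the highest of 16653 over 6 arrays and are given as a description only.

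A list of heterochromatic genes known by name gave a set to read these beside. Of 26 names, 25 were matched. Among the 185 models are 5 of these, AGO3, uex, MFS17, Set1 and Maf1, of which Set1 alone passed, as given above. They were left out here. Of the other 20 none passed in limma, against 3.6% of all genes. The median log2 difference of the 20 was -0.05 and 10 of them lay below 0. Only 16 of the 20 had a mean of 50 or more, the level of the models, so the sets are not matched in level. The listed genes below that level all had differences below 0: Snap25 (-0.44), nvd (-0.40), spok (-0.10) and Pzl (-1.03). In the files nvd, spok and Pzl bear names of the same pattern as the models. The 6 of highest mean are ribosomal, translation and kinase genes and a cell adhesion gene. RpL5 had a mean of 10007 and a difference of 0.13 ± 0.12, RpL15 a mean of 9970 and -0.15 ± 0.12, and eIF4B a mean of 3621 and -0.42 ± 0.12. RpL38 had a mean of 3045 and a difference of 1.12 ± 0.28 (adjusted p 0.0694, uap56 above), CkIIalpha a mean of 2962 and -0.28 ± 0.11, and p120ctn a mean of 1899 and 0.29 ± 0.13. None of these differences passed, and they pointed both ways. Like RpL38, p120ctn had uap56 above without overlap, and eIF4B and CkIIalpha had vasa above. Of the listed genes of lower mean, Dbp80, rl and vtd had uap56 above without overlap and Nipped-A had vasa above. Among all genes 23.4% were separated. One gene of the 20 passed under quantile normalization, array centring, the added 16, the filter at the 25th percentile or without vasa replicate 1, and 2 passed when only genes at 50 or more were tested.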

How the data were processed

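Per the labels, each deposited value is a summarised and normalized expression intensity from a tiling array, given by the authors for RefSeq transcripts and transposon families. Which normalization, probes and genome build were used is not stated in any source at hand. The 21158 RefSeq entries include 393 at 0 on every array, left out; the lowest other deposited intensity is 1. Log2 of the deposited intensity was taken with no pseudocount. One entry per gene name was kept, that of the highest mean. limma 3.58.1 in R 4.3.3 (lmFit, eBayes with trend and robust options, two-sided) was fitted to 14012 genes, with Benjamini-Hochberg adjustment over all and a threshold of 0.05. The script was tested on simulated data. The members, lists and fit were chosen with earlier results of these data known. Names and arms come from the RefSeq table of Release 6, and genes were ordered along each arm by its start coordinates. Distances in bases were not used. Named are the models past the threshold; the 6 of highest mean with and without a CR locus; the 6 largest differences each way without overlap and with a higher group mean of 100 or more; the 3 models on each side of 50; the 3 most alike pairs; vas and Hel25E; and listed heterochromatic genes. All 46 models with a Release 6 gene are also given. Array number limits precision. The labels give no batch. Deviations of same-numbered arrays correlated at -0.0057, -0.0076 and -0.031, and those of other arrays at -0.0195 to 0.0270. The values thus show no pairing by replicate number, but the labels do not say whether the numbers pair the arrays. Alternatives were variance models, normalization, pseudocount, filters, transcript choice, levels and left-out arrays.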

Additional observations from a re-analysis of the deposited data

How the results depend on the processing

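The count of models past the threshold (10) was 0 with a single variance prior, 0 with robust hyperparameters alone, 0 at a threshold of 0.01, and 0 to 10 without 1 array; 8 to 13 passed under the intensity trend alone, quantile normalization, centring, the added 16, both filters on low values and both other choices of transcript. For all genes (504) the counts were 2, 2 and 54 in the first 3 settings and 65 to 477 without 1 array. With the replicate number as a block (replicate block), 3 models and 203 genes passed. Whether the numbers pair the arrays is not given in the labels. Other heterochromatic genes (0) had 1 past under quantile normalization, centring, the added 16 and the 25th percentile filter, 2 at 50 or more, and 0 to 1 without 1 array. Levels of 25 and 100 gave 314 and 92 models, with 11 and 9 past the threshold and medians of -0.32 and -0.35. The median of all models was -0.31 as the mean over transcripts and -0.28 to -0.13 without 1 array. For models not in Release 6 it was -0.29 after quantile normalization, -0.34 as the mean over transcripts, and -0.33 to -0.15 without 1 array; for CR models it was -0.22 to 0.35 without 1 array. CG40439 turned to -0.058 after quantile normalization and to -0.055 as the mean over transcripts. Without 1 array, CG40439 spanned -0.13 to 0.13, CG40045 -0.15 to 0.018, CG41457 -0.90 to 0.31, CG41249 -0.29 to 0.85 and CG40050 -0.69 to 0.00076; the cause was not tested. The 10 models that passed kept their direction in every alternative run, with adjusted p between 0.00546 and 0.207. Of 606 comparisons of a named model with its value as reported, 503 kept direction and side of the threshold, 86 lost the call, 5 gained one and 12 changed sign. Models under 100 varied more between replicates (median within-group SD of 0.86 in log2) than models at 100 or more (0.46).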
